A study of Mus musculus with 6 samples.

Results

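Mitogen-activated protein kinase (MAP kinase) cascade genes were read in RNA sequencing profiles of mouse microglia, the macrophages that live in the brain, after exposure to medium conditioned by bone marrow-derived macrophages (BMDMs). The genes were chosen by symbol: every row of the gene table whose symbol begins with Mapk, Map2k, Map3k or Map4k. That gave 52 rows and 51 symbols among 26096 rows in all, since Map2k7 stands on 2 gene IDs. They comprise 5 MAP4K, 17 MAP3K, 8 MAP2K, 12 MAPK and 3 MAPK-activated kinase rows, and 7 rows of scaffolds, interacting proteins and other genes that share the prefix. Wild-type microglia received medium from normal BMDMs (C CM, here control medium, 3 samples) or from ferroptotic BMDMs (FeM CM, here ferroptotic medium, 3 samples). Ferroptosis is a death of cells in which iron promotes the peroxidation of membrane lipids. How ferroptosis was induced, how long the microglia were exposed and where they came from were left unstated in the sources used here. The labels do not say whether the 3 samples of a group were separate cultures, and the p-values therefore cover the spread between these samples alone, which may be technical.

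A MAP kinase cascade is a relay in which a MAP3K phosphorylates a MAP2K, which phosphorylates a MAPK on a threonine and a tyrosine of its activation loop. MAP4Ks act upstream of some MAP3Ks, and MAPK-activated kinases are substrates of the MAPKs. In macrophages and microglia, the ERK, JNK and p38 branches carry signals from pattern recognition and cytokine receptors to cytokine transcription, mRNA stability and translation. The kinases are switched mainly by phosphorylation, which RNA levels do not record.

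The libraries held 39624311 to 50557794 reads on genes. Values below are normalized counts, that is, counts divided by the authors' size factor of the library, and a log2 difference is the mean of log2(normalized count + 1) with ferroptotic medium minus that with control medium. Of 11 microglia and macrophage markers, 9 were tested, and the summed level of all 11 was 150273 to 155334 normalized counts with control medium and 129265 to 131152 with ferroptotic medium. Among them Csf1r and Cd68 fell and Tyrobp rose, while P2ry12 (3 reads over the 6 libraries) and Tmem119 (21 reads) were nearly undetected. The summed markers of other cells differed as well, with control and ferroptotic medium respectively at 3357 to 3652 and 4177 to 4362 for astrocytes (4 of 6 markers tested), 8821 to 9383 and 6139 to 6351 for oligodendrocytes (5 of 6), and 309 to 337 and 388 to 405 for endothelial cells (3 of 4). Of 5 neuronal markers Tubb3 alone was read, at 2.94 to 7.83 and 55.3 to 66.5. Of 4 fibroblast markers Dcn alone was tested, with Col1a1 at 10 reads and Col1a2 at 1 read over the 6 libraries, and the list summed to 6.85 to 11.8 and 26.6 to 60.9. The astrocyte transporter gene Slc1a2 had 3 reads. Members of a list did not all follow its sum, which Aldoc carried for astrocytes and Mbp for oligodendrocytes. Aldh1l1 fell (-0.64; limma adjusted p = 0.0325) in the astrocyte list, and Mag rose (1.01; limma adjusted p = 0.0036) in the oligodendrocyte list. The part of these differences in the results was not tested, and in bulk samples fewer cells of a type and less RNA per cell cannot be told apart.

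With ferroptotic medium, transcripts of 5 MAPK genes rose and none of that tier fell, while kinases of the upper tiers changed both ways. Of the 52 rows, 47 reached 10 normalized counts in 3 or more libraries and were tested. With limma, 16 were higher and 8 lower at an adjusted p under 0.05, or 51.1% of those tested, against 42.5% of all 15597 genes tested (19.7% higher and 22.8% lower). Among genes with a mean of at least 500 normalized counts, 55.7% passed, as did 22 of the 36 members at that level (61.1%), so the share of members called was near the background. The 6 libraries split by medium without overlap in 31 of the 47 (66.0%), against 53.7% of all genes tested. The differences were small. Only 6 of 47 (12.8%) were called with a log2 difference of at least 0.5 in size, against 20.3% of all genes, and the median size was 0.25 among members and 0.29 among all genes tested. The comparisons of size and of overlap were not matched for level. The median of the mean was 1632 normalized counts among tested members and 811 among all genes tested. By tier, 1 of 5 MAP4K genes rose and 2 fell, and 4 of 17 MAP3K genes rose and 4 fell. In the MAP2K tier 2 of 7 tested rose and 2 fell. In the MAPK tier 5 of 10 tested rose and 0 fell, with a median log2 difference of 0.28, against -0.005 over all genes tested. No MAPK gene was lower by limma at an unadjusted p under 0.05 either (0 of 10), nor by limma-voom (0).

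**Figure D1:**
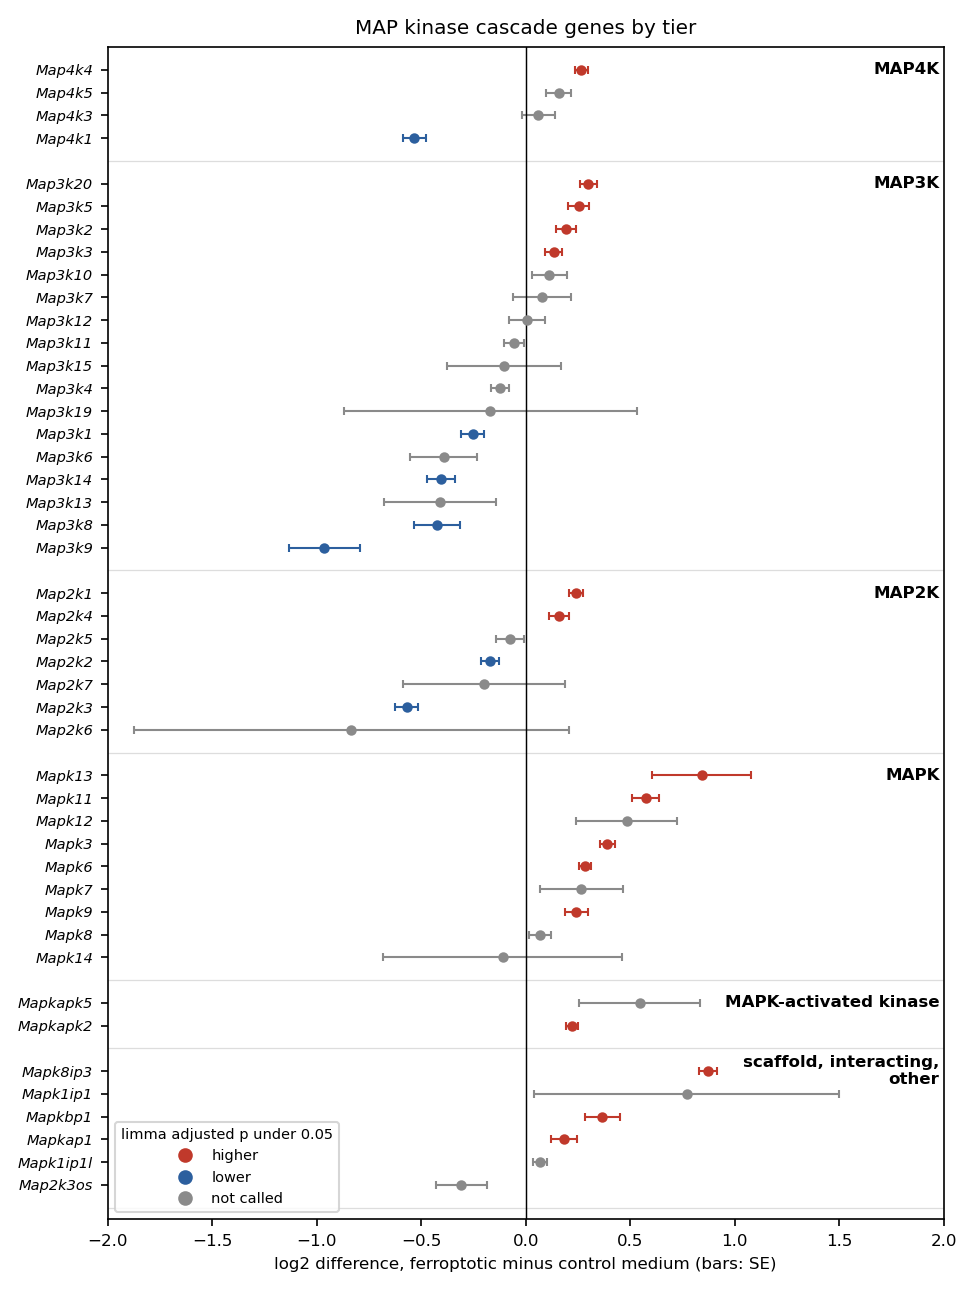
Log2 difference (ferroptotic minus control medium, x axis) of the tested genes by tier (2 of the 47 are not shown), with limma's standard error as bars (3 libraries per group) and colour for the call at an adjusted p under 0.05. The called MAPK genes all lie above 0, and the widest bars belong to Map2k6, Map3k19, Mapk1ip1 and Mapk14.

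Levels of different genes were compared per length. Normalized counts were divided by the exon length of the gene in GENCODE M21, which may not be the annotation the authors counted on. On that scale Mapkapk2, encoding the p38 substrate kinase that controls cytokine mRNA stability and translation, had the highest level of all members, with 5983 normalized counts per kb in control medium and 6987 in ferroptotic medium. Map2k1, which encodes the ERK activator MEK1, followed with 3109 and 3675, and Mapk3, encoding ERK1, with 2749 and 3607. Mapk6, encoding the atypical kinase ERK3, had 1685 and 2054. The leading MAP3K gene was Map3k3 (1053 and 1155) and the leading MAP4K genes were Map4k1 (1201 and 830.5) and Map4k4 (987 and 1187), whose order differed between the media. At the low end stood Map2k6 (2.79 and 2.42) and Map3k19 (2.74 and 3.11). Over both media, Mapk8, encoding JNK1, averaged 143 per kb and Mapk9, encoding JNK2, 273.

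**Figure D2:**
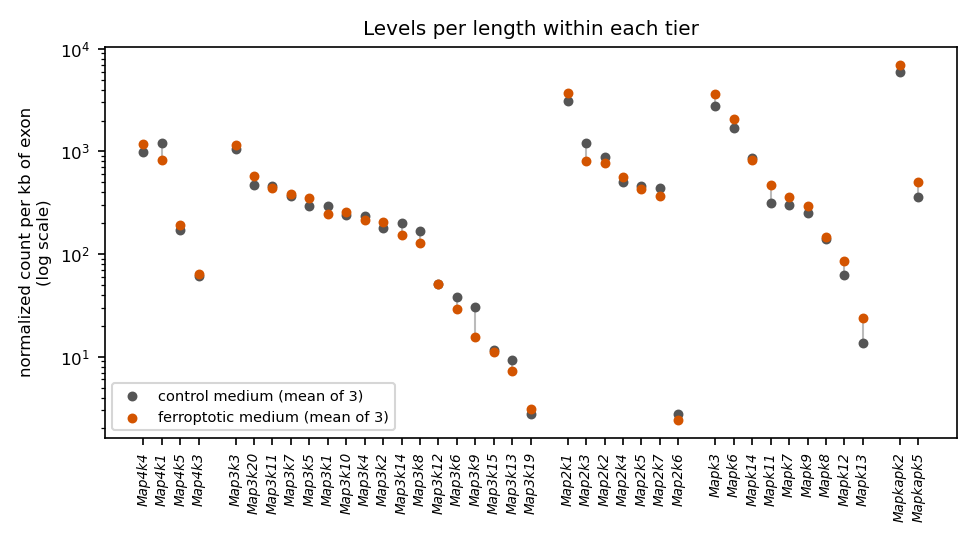
Mean normalized count per kb of exon (y axis, log scale) of the tested kinases (2 are not shown), ordered by level within the MAP4K, MAP3K, MAP2K, MAPK and MAPK-activated kinase tiers, with grey points for control medium and orange for ferroptotic medium (mean of 3 libraries each). Mapkapk2 stands at 5983 and 6987, and Map2k6 at 2.79 and 2.42.

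In the p38 branch, 2 of the 4 p38 genes rose while the gene of an upstream activator fell. Of all genes tested, 42.5% were called and 19.7% were higher. Mapk11 (ENSMUSG00000053137), encoding p38 beta, had 888, 931 and 891 normalized counts with control medium and 1429, 1314 and 1300.2 with ferroptotic medium. All ferroptotic libraries stood above all control libraries, a log2 difference of 0.58 (SE 0.06; limma adjusted p = 0.00013). Mapk13 (ENSMUSG00000004864), encoding p38 delta, was scarce, with 32.3, 54.7 and 41.1 against 72.3, 81.9 and 73.1 normalized counts. Its groups did not overlap either (0.84, SE 0.24; limma adjusted p = 0.0201), though the adjusted p was 0.0586 without control replicate 1 and 0.0652 without ferroptotic replicate 2. Mapk12, encoding p38 gamma and the neighbour of Mapk11 in the genome, had 191, 334 and 191 against 351, 267 and 357. Control replicate 2 lay within the ferroptotic range, and the difference of 0.48 (SE 0.24) did not pass (limma adjusted p = 0.153), while without that library it was 0.75 with an adjusted p of 0.00696.

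Mapk14, encoding p38 alpha, the main p38 kinase of macrophages, could not be placed. It had 3348, 2320.3 and 5625 normalized counts with control medium and 6166, 2191 and 2579 with ferroptotic medium. The highest and lowest of the 6 values were both from ferroptotic medium, and the log2 difference was -0.11 with an interval from -1.65 to 1.43 (95%, limma; adjusted p = 0.902). Its span within ferroptotic medium was 1.49 log2 units, against a median of 0.17 for the wider span of the 9012 genes with a mean of at least 500 normalized counts. Only 2.11% of those genes spanned 1 log2 unit or more in a group. Per kb of exon, Mapk14 made up 55.4% to 77.6% of the p38 family with control medium and 47.6% to 69.8% with ferroptotic medium. The family summed to 958 to 1657 per kb with control medium and 1052 to 2019 with ferroptotic medium, ranges that overlap.

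Map2k3 (ENSMUSG00000018932), encoding the p38 activator MKK3, fell. It had 3732, 3928 and 4238 normalized counts with control medium and 2642, 2745 and 2619 with ferroptotic medium. The groups were far apart relative to their spread, with a log2 difference of -0.57 (SE 0.05; limma adjusted p = 4.66e-05). Map2k3os, annotated as antisense to it, had 356, 394 and 370.0 against 262, 347 and 302 and did not pass (-0.31, SE 0.12; limma adjusted p = 0.075). Without ferroptotic replicate 2 its limma adjusted p was 0.0308. The sources used here do not say whether counting used strand, but no exon of the annotated Map2k3os gene overlaps one of Map2k3 in GENCODE M21. Map2k6, encoding the other dedicated p38 activator MKK6, had 13.7, 9.25 and 5.87 normalized counts against 12.8, 12.3 and 0, so its difference was not detectable at this depth. Downstream, Mapkapk2 rose, from 18231, 18111 and 18239 to 21529, 20632 and 21586 normalized counts. Its groups did not overlap, and the log2 difference was 0.22 (SE 0.03; limma adjusted p = 0.000273).

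Mapkapk5, encoding the kinase PRAK, had 715, 1362 and 1404 normalized counts with control medium and 1688, 1581 and 1595 with ferroptotic medium. The groups did not overlap, but control replicate 1 stood far below the other controls, and the difference of 0.55 (SE 0.29) did not pass (limma adjusted p = 0.203). Without that library it was 0.23 with an adjusted p of 0.0269. On the same strand, Mapkapk5 shares 56.5% of its exon length with Adam1a, which had 15.7 to 35.8 normalized counts per library and was not called. Mapkapk5 shares 56.4% with Gm42878. That model had 416 normalized counts in control replicate 1, 34.5 and 0 in the other controls, and 10.6, 0 and 134 with ferroptotic medium. The library lowest in Mapkapk5 was thus the highest in Gm42878, and how reads were divided between these models was not tested.

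**Figure D3:**
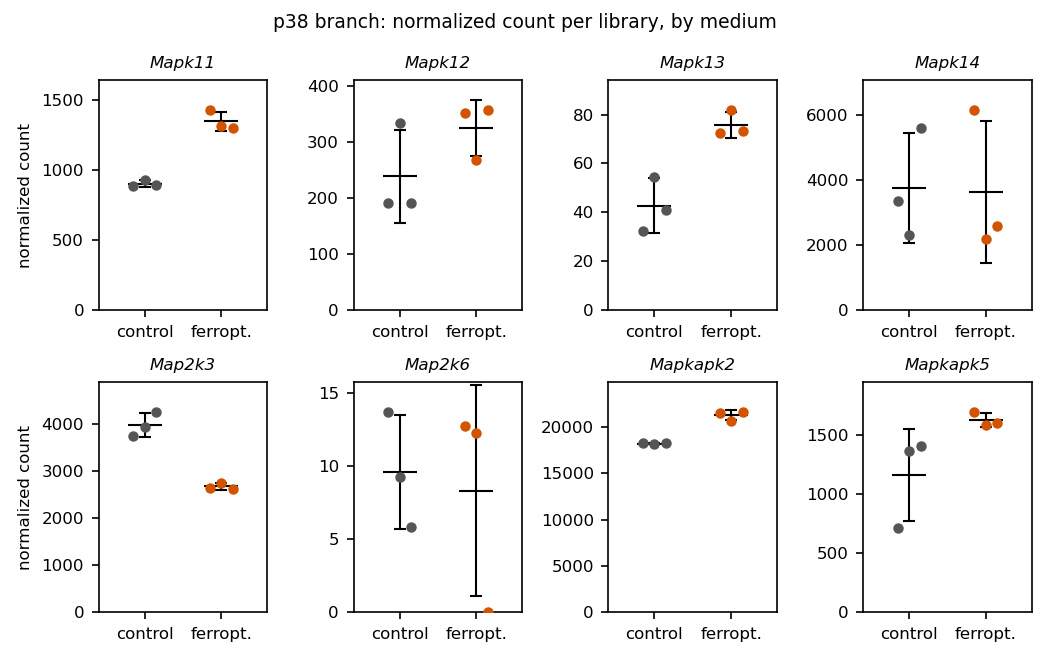
Normalized count per library (y axes from 0) of p38 branch genes, with control medium in grey and ferroptotic medium in orange, and the mean and SD over 3 libraries as black bars. Mapk11, Mapk13 and Mapkapk2 are higher with ferroptotic medium, Map2k3 is lower, and Mapk14 runs from 2191 to 6166 within ferroptotic medium.

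The promoters of the genes with the largest changes are shown because in both the p38 branch (Mapk11, Mapk13, Map2k3) and the JNK branch (Mapk8ip3, Map3k9) such genes changed in opposite directions. They are the 250 bases before the RefSeq start, from RefSeq on GRCm38.p6, for the 5 genes called with a log2 difference of at least 0.5 that have 1 start in the table: Mapk11 at chr15:89149607-89149856 (minus strand), Mapk13 at chr17:28769067-28769316 (plus strand) and Mapk8ip3 at chr17:24936978-24937227 (minus strand), which rose, and Map2k3 at chr11:60931804-60932053 (plus strand) and Map3k9 at chr12:81781171-81781420 (minus strand), which fell. Capitals mark GGGCGG (the GC box of SP1) or TGACG (the core of the cAMP response element) on either strand, and the runs read 5′ to 3′ toward the gene.
Mapk11: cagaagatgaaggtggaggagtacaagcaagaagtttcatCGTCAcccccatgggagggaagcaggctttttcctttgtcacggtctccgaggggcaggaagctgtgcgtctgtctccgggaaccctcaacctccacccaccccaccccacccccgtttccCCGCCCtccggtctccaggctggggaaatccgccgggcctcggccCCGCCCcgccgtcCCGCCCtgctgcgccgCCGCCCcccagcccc
Mapk13: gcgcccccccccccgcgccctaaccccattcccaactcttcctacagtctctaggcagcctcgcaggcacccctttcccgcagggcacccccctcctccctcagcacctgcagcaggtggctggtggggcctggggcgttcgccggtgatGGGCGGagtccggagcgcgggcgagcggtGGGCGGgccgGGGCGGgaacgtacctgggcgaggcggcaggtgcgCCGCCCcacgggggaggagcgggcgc
Mapk8ip3: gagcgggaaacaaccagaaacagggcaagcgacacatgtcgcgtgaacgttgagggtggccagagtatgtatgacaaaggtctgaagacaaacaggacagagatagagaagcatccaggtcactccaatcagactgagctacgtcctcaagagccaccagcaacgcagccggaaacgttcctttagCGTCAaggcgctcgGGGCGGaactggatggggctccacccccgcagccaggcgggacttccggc
Map2k3: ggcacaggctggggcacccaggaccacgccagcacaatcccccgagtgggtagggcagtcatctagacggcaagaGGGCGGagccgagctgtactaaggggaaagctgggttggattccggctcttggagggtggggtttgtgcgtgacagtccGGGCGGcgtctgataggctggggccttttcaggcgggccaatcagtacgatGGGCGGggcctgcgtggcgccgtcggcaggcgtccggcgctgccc
Map3k9: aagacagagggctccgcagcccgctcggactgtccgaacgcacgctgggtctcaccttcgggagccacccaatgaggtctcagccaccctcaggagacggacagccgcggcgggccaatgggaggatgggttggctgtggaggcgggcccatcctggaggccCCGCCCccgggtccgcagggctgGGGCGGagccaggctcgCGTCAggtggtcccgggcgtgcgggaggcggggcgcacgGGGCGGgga

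Mapk11 and Mapk13 each hold GGGCGG at 4 places, Map2k3 and Map3k9 at 3, and Mapk8ip3 at 1. TGACG occurs once in Mapk11, Mapk8ip3 and Map3k9 and is not among the letters of the Mapk13 and Map2k3 windows. Over the 41 member symbols with an entry (55 promoters), 56.4% hold GGGCGG, against 32.7% of all 32851 promoters of that length, and 29.1% hold TGACG, against 17.8%. The member promoters were also richer in G and C, with a median of 62.8% against 52.4%. Of the 17 promoters of members that rose, 58.8% hold GGGCGG and 41.2% TGACG, and of the 8 promoters of members that fell, 75% and 25%. The antioxidant response element TGACNNNGC, which can share its TGAC with the cAMP element, stands in 6 of the 17 and 1 of the 8. It stands in 27.3% of all member promoters and 10.2% of all promoters. The 6 belong to 4 genes (Map2k1, Map3k20, Map3k3 and Mapk6), as a gene can have more than 1 start. The AP-1 site TGANTCA stands in 0 of either, against 5.5% of all member promoters and 6.75% of all promoters. The kappaB motif stands in 1 of the 17 and 2 of the 8, against 12.7% of all member promoters and 7.25% of all promoters. A match is a description of letters, not of binding.

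In the ERK branch, the MEK genes changed in opposite directions and Mapk3, the gene of ERK1, rose. Map2k1 (MEK1) had 10192, 10754 and 10683 normalized counts with control medium and 12538, 12446 and 12400.0 with ferroptotic medium, with no overlap (log2 difference 0.24, SE 0.03; limma adjusted p = 0.00034). Map2k2, encoding MEK2, had 4897, 5038 and 4955 against 4634, 4296 and 4294. Its groups did not overlap either, in the other direction (-0.17, SE 0.04; limma adjusted p = 0.0109), and with quantile normalization the adjusted p was 0.0695. Mapk3 (ENSMUSG00000063065, ERK1) went from 6158, 6275 and 6181 to 8397, 7853 and 8173 normalized counts. This rise had the smallest p of the MAPK tier (0.39, SE 0.04; limma adjusted p = 3.89e-05), with every ferroptotic library above every control.

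Map3k8, encoding TPL2, the MAP3K that couples Toll-like receptors to MEK in macrophages, fell. It had 725, 809.9 and 753 normalized counts with control medium and 513, 535 and 668 with ferroptotic medium. Ferroptotic replicate 3 stood closest to the controls, and the log2 difference was -0.42 (SE 0.11; limma adjusted p = 0.0139). The atypical ERK3 gene Mapk6 rose from 11194, 11171 and 11379 to 13531, 13709 and 13892 (0.29, SE 0.03; limma adjusted p = 5.8e-05). In the ERK5 module, the MAP3K genes Map3k2 (0.19, SE 0.05; limma adjusted p = 0.0125) and Map3k3 (0.13, SE 0.04; limma adjusted p = 0.0245) rose. The adjusted p of Map3k3 lay between 0.0764 and 0.083 when any of control replicates 1 and 2 and ferroptotic replicate 2 was left out. Neither Map2k5, encoding MEK5 (-0.07, SE 0.07; limma adjusted p = 0.413), nor Mapk7, encoding ERK5 itself, passed. Mapk7 had 1601, 1061 and 1259 against 1741, 1254 and 1706 normalized counts, which overlapped (0.27, SE 0.20; limma adjusted p = 0.341).

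In the JNK branch, Mapk9 (JNK2) rose from 1649, 1709 and 1729 to 1897, 2057 and 2067 normalized counts (log2 difference 0.24, SE 0.05; limma adjusted p = 0.00704). Mapk8 (JNK1) had 1613, 1557 and 1607 against 1617, 1715 and 1683. These groups did not overlap but lay close together, and the interval of the log2 difference ran from -0.05 to 0.19 (95%, limma; adjusted p = 0.321). Mapk10, encoding the JNK3 of neurons, had 2 reads in all. Map2k4, encoding the JNK activator MKK4, had 2339, 2235 and 2427 against 2579.7, 2589 and 2658 normalized counts. It passed (0.16, SE 0.05; limma adjusted p = 0.0252), but its adjusted p lay between 0.0552 and 0.0906 when any of control replicates 1 and 2 and ferroptotic replicates 2 and 3 was left out. Map2k7, encoding MKK7, had 1242, 1235 and 2625 against 1809.8, 1282 and 1147, where control replicate 3 stood far above the rest (-0.20, SE 0.39; limma adjusted p = 0.73). The second gene ID with that symbol, named Gm49320 in GENCODE M21, shares exons with it on the same strand and had 34 reads in control replicate 2, 8 in ferroptotic replicate 1 and 0 elsewhere.

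The largest rise among the called members was in a JNK scaffold gene. Mapk8ip3 (ENSMUSG00000024163), encoding JIP3, which tethers JNK cascade kinases and links cargo to kinesin motors, had 3816, 4070.4 and 4052 normalized counts with control medium. With ferroptotic medium it had 7094, 7569.7 and 7167, so the groups were far apart. The log2 difference was 0.87 (SE 0.04; limma adjusted p = 8.61e-07), and it stayed between 0.84 and 0.93 in the 13 alternatives. Of its exon length, 10.7% overlaps Eme2 on the same strand, and 9.0% overlaps Mrps34 on the other. Eme2 had 1322 ± 62.5 and 1573 ± 247 normalized counts and Mrps34 1455 ± 146 and 1029 ± 80.3 (SD, n = 3 per group). Mapkbp1, encoding a JNK-binding protein, rose from 1074, 1042 and 1106 to 1487, 1219 and 1467 (0.37, SE 0.08; limma adjusted p = 0.00771). Mapk8ip1, encoding JIP1, had 2 reads over the control libraries and 22 over the others, below the filter. It is the 1 member in the authors' deposited shorter table, which gives a log2 fold change of 2.53 and a false discovery rate of 0.055. By the false discovery rates of the authors' deposited full table, 24 members were under 0.05, and all 24 were called here.

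**Figure D4:**
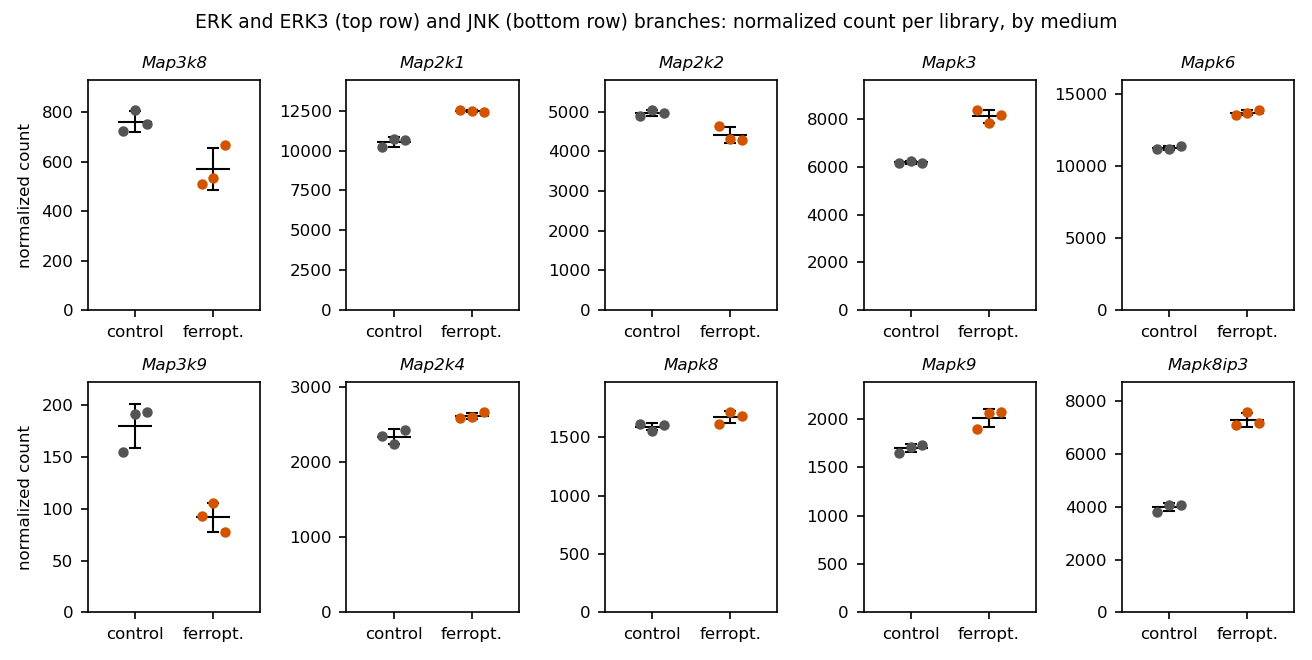
Normalized count per library (y axes from 0) of ERK branch genes and the ERK3 gene Mapk6 (top row) and JNK branch genes (bottom row), with control medium in grey and ferroptotic medium in orange, and the mean and SD over 3 libraries as black bars. Mapk3 and Mapk8ip3 are separated by medium and higher with ferroptotic medium, and Map3k9 is lower.

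Over the whole MAP3K tier, 4 of 17 genes rose and 4 fell (23.5% each), near the shares of all genes tested (19.7% higher and 22.8% lower). Among those that fell, Map3k9 (ENSMUSG00000042724), encoding the mixed lineage kinase MLK1 upstream of JNK, changed most. It had 155, 191 and 193 normalized counts with control medium and 92.5, 105 and 77.5 with ferroptotic medium. No ferroptotic library reached the lowest control, and the log2 difference was -0.96 (SE 0.17; limma adjusted p = 0.00186). Map3k14, encoding NIK, the kinase of the noncanonical NF-kB pathway, had 1296, 1294 and 1356 against 978, 942 and 1065 (-0.40, SE 0.07; limma adjusted p = 0.00132). Map3k1, encoding MEKK1, had 2104, 2298 and 2170.3 against 1757, 1846 and 1907 (-0.25, SE 0.06; limma adjusted p = 0.00619). With Map3k8 these are the 4 that fell, and their groups did not overlap, as was so for 53.7% of all genes tested.

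Among the MAP3K genes that rose, Map3k20, encoding ZAK, which senses stalled and collided ribosomes, was higher by 0.30 (SE 0.04; limma adjusted p = 0.000329), with 4782 ± 67.2 and 5889.6 ± 216 normalized counts (SD, 3 libraries each). Map3k5, encoding ASK1, which thioredoxin holds inactive until it is oxidized, had 1836, 1801 and 1733 against 2141, 2081 and 2183 (0.25, SE 0.05; limma adjusted p = 0.00315). Both stood clear of their control values in every library. Map3k7, encoding TAK1, the kinase downstream of Toll-like and interleukin-1 receptors, had 2479, 2481 and 2068 against 2531, 2059 and 2881. Its groups overlapped, and the interval of the log2 difference ran from -0.26 to 0.42 (95%, limma; adjusted p = 0.693). The other 8 MAP3K genes that did not pass had log2 differences from -0.41 (Map3k13) to 0.11 (Map3k10). Map3k10 and Map3k11 (-0.06, SE 0.05), which encode relatives of the Map3k9 kinase, were among them.

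In the MAP4K tier, Map4k1, encoding HPK1, a negative regulator of immune receptor signalling in blood cells, fell from 3490.4, 3845 and 3750.4 to 2684, 2509 and 2473 normalized counts. The groups were separate, with a log2 difference of -0.53 (SE 0.05; limma adjusted p = 6.79e-05). Map4k4, encoding HGK, rose from 9396, 9288 and 9678 to 11513, 11185 and 11413 (0.27, SE 0.03; limma adjusted p = 0.000169). Map4k5 (0.16, SE 0.06; limma adjusted p = 0.0644) and Map4k3 (0.06, SE 0.08; limma adjusted p = 0.583) did not pass. With quantile normalization Map4k5 had an adjusted p of 0.0216.

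Other genes that share the prefix belong to other pathways or are little known. Mapkap1, encoding SIN1, a subunit of the mTORC2 complex rather than of a MAP kinase cascade, had 1626 ± 88.0 and 1847 ± 102 normalized counts (SD, n = 3 per group). It passed narrowly (log2 difference 0.18, SE 0.06; limma adjusted p = 0.0484) and lost its call in 9 of 13 alternatives, with an adjusted p between 0.0584 and 0.154. Mapk1ip1l did not pass (0.07, SE 0.03; limma adjusted p = 0.136), though it did in 1 of 13 alternatives (adjusted p 0.0215). Mapk1ip1 had 82.3, 252 and 286 against 147, 427 and 474 normalized counts, which overlapped (0.77, SE 0.73; limma adjusted p = 0.464). Of the members below the filter, Mapkapk3 had 5 reads in control replicate 2, 4 in ferroptotic replicate 1 and 0 elsewhere, and Mapk15 had 6 reads in all. With so few reads no difference was detectable in these rows.

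Spread between libraries of 1 medium limited some of the abundant members. Of the 36 with a mean of at least 500 normalized counts, 4 spanned 0.5 log2 units or more in a group (Mapk14, Map2k7, Mapkapk5 and Mapk7), or 11.1%, against 8.33% of all genes at that level. None of these 4 passed the test. Control replicate 3 was the highest control library for Mapk14 and Map2k7, and control replicate 1 was the lowest for Mapkapk5 and the highest for Mapk7. Ferroptotic replicate 1 was the highest ferroptotic library for all 4, though close to replicate 3 for Mapk7 (1741 and 1706 normalized counts).

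**Figure D5:**
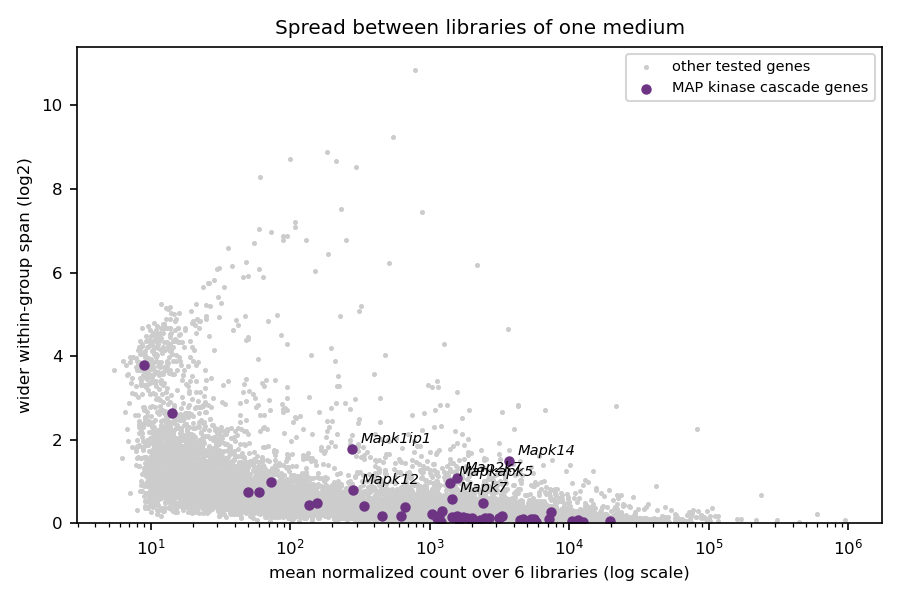
Wider within-group span of log2 values (y axis) against the mean normalized count over 6 libraries (x axis, log scale), with the tested members in purple and the other tested genes in grey. Mapk14 at 1.49 and Map2k7 at 1.09 lie far above most genes of their level.

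Pathway genes without the prefix were read from 6 lists of 58 genes, of which 51 were tested, and 18 rose and 11 fell. That is 56.9% called, against 42.5% of all genes tested (19.7% higher and 22.8% lower) and 55.7% of those with a mean of at least 500 normalized counts, and the counts of each list below stand against the same background. Dual-specificity phosphatases, which remove the activating phosphates from MAPKs, rose in 8 of 9 tested and fell in 1, with a median log2 difference of 0.70. Dusp5 (1.56, SE 0.04; limma adjusted p = 2.41e-08) and Dusp16 (1.06, SE 0.06; 1.75e-06) had the smallest p among those that rose, and Dusp7 fell (-0.25, SE 0.07; 0.0228). The 9 tested RAF and other tier kinases under other names had 0 higher and 0 lower by limma and by limma-voom, with 1 (Ksr1) at an unadjusted p under 0.05. Neither Araf (0.09) nor Braf (-0.07), which encode MAP3Ks of the classical ERK cascade, passed. Among RAS proteins and their adaptors 3 of 11 rose and 3 fell, led by the exchange factor genes Sos2 (0.53, SE 0.04) and Rasgrp3 (-1.11, SE 0.04). In the list of TAB, scaffold and adaptor proteins 3 of 10 rose and 3 fell. Tab1 (-0.55, SE 0.07; limma adjusted p = 0.00036) and Tab2 (-0.82, SE 0.04; 1.24e-06), both partners of TAK1, fell, the latter with 6143 ± 81.0 and 3477 ± 162 normalized counts (SD, 3 libraries each), while Map3k7 itself did not pass. Tab3, a further partner of TAK1 chosen after its values were seen, differed the other way and did not pass (0.19; limma adjusted p = 0.0648).

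Among the kinases that ERK and p38 activate, 3 of 7 tested rose and 2 fell, against 19.7% and 22.8% of all genes tested. Mknk1, encoding MNK1, which phosphorylates the cap-binding protein eIF4E, rose, with 1937 ± 36.6 and 3168 ± 181 normalized counts (SD, 3 libraries each; log2 difference 0.71, SE 0.05; limma adjusted p = 1.17e-05). Its relative Mknk2 fell (-0.21, SE 0.04; limma adjusted p = 0.00408). Rps6ka3, encoding RSK2, rose (0.18, SE 0.05), and Rps6ka4, encoding MSK2, fell (-0.27, SE 0.07). Of the 5 tested SPRY and SPRED genes, which restrain RAS to ERK signalling, Spred3 rose (0.52, SE 0.06) and Spred1 (-0.33, SE 0.04) and Spred2 (-0.14, SE 0.05; limma adjusted p = 0.0489) fell.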

How the data were processed

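The submitters' processing notes name HISAT2 2.1.0, fastp 0.17.1, R 3.4.3 and DESeq2 1.18.1, while no label or note names the counting tool, the genome build or the strand setting. The authors deposited log2 values. Undoing the log2 and taking off 1 gave steps of a constant size in each library, and dividing by that step turned 100% of the low values into whole numbers (tolerance 0.01), taken as reads. The deposited p-values, false discovery rates and FPKM of the authors were used only to count and quote their calls. The test was limma 3.58.1 in R 4.3.3 (trend, robust, two-sided) over the 15597 genes that reached 10 normalized counts in 3 or more libraries, with Benjamini-Hochberg adjustment over all of them, and a threshold of 0.05. It was also run on simulated data with few changed genes and the same relative spread for all, a setting simpler than these data. SE is limma's moderated standard error. Replicate pairs differed by more than sampling noise (chi-square per degree of freedom 16.3 to 22.8). GENCODE M21, which holds 26051 of the IDs (99.8%), gave exon lengths and overlaps. Values in every library are given for called members of at least 0.5 on the log2 scale and for a chosen set of others; pathway genes are named by smallest p, and further names were chosen after their values were seen. Results for some genes are not reported here. The members and lists were chosen with earlier results of these data known. Alternatives covered filters, pseudocount, scaling, limma-voom, a replicate block and each library left out.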

Additional observations from a re-analysis of the deposited data

How the results depend on the processing

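Of the 24 calls, 19 held in all 13 alternatives and 0 changed direction; those of Map3k3, Map2k2, Map2k4, Mapk13 and Mapkap1 were lost in some. With quantile normalization and with limma-voom on the whole reads worked out, 2 MAP4K genes were higher (1 in the main test), and with quantile normalization 1 MAP2K gene was lower (2 in the main test). Without trend and robust variance 1 MAP2K gene was higher (2 in the main test). Leaving out 1 library at a time gave 12 to 16 members higher and 8 to 9 lower. By tier the range was 1 to 2 higher in MAP4K, 3 to 4 in MAP3K, 1 to 2 in MAP2K, 4 to 6 in MAPK, 1 to 2 in MAPK-activated kinases and 2 to 3 in scaffolds and others, where 0 to 1 were lower, and 15 to 18 pathway genes were higher and 9 to 10 lower.

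Signs changed only in genes that did not pass: Map3k12 with quantile normalization (-0.0038) and Map3k19 with a pseudocount of 10 (0.0045), and others when 1 library was left out. The lowest and highest log2 differences were then -0.035 and 0.051 for Map3k12, -0.34 and 0.031 for Map3k15, -0.68 and 0.64 for Map3k19, -0.032 and 0.21 for Map3k7, -1.11 and 0.42 for Map2k6, -0.39 and 0.16 for Map2k7, and -0.57 and 0.23 for Mapk14. The cause was not tested. Map2k6 had a value in 10 of the 13 alternatives, since it did not reach the filter in the others.

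The labels give libraries of different media only a replicate number in common. Same-numbered libraries did not deviate together (correlations across genes 0.0086, -0.020 and -0.039), and no library correlated best with its own number. Deviations from a group mean depend on each other, so these correlations cannot settle whether libraries were paired. With the replicate block 16 members were higher and 8 lower; Map3k3 and Mapkap1 lost their calls, and Mapk7 (adjusted p 0.0386) and Mapk1ip1 (0.00243) gained one. Members near the filter, such as Map2k6 and Map3k19, rest on so few reads that depth limits what can be detected.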
